A study of Mus musculus with 2 samples.

Results

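The protein-coding genes whose symbols begin with Mrpl or Mrps and a digit, 78 in the GENCODE M21 annotation, were followed in adrenal gland RNA. They were taken by symbol and gene type, with earlier results of these data known. All 78 were seen in both libraries, among 18111 annotated genes with a read. RNA came from adrenal gland tissue of female B6CASTF1/J mice, the F1 cross of C57BL/6 and CAST parents, at 14 days of age. The 2 libraries are biological replicates 1 and 2 of 1 group, for which the labels name no treatment, with no other genotype, age or tissue beside it, so the comparison the design allows is between the libraries. The labels of both libraries speak of 3 females and that of the replicate 2 tissue of a single animal, so whether animals were pooled is not clear.

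The mitochondrial ribosome translates the few messages of the mitochondrial genome, which code for core subunits of the respiratory chain complexes and of ATP synthase. Its RNAs are made inside the organelle, but every one of its proteins is coded in the nucleus, made in the cytosol and imported. The small subunit binds the message and decodes it, and the large subunit joins amino acids and threads the chain towards the inner membrane. Cells of the adrenal cortex are rich in mitochondria because the first and last steps of steroid synthesis take place there. By structure Mrps30 and Mrps18a belong to the large subunit despite their symbols, so 27 members were counted as small-subunit and 51 as large-subunit. Mrps36, counted with the small subunit by its symbol, is now better known as a part of the 2-oxoglutarate dehydrogenase complex. Of the 78, 45 have a bacterial counterpart and 33 belong to the mitochondrial ribosome alone or were not classed.

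Long-read sequencing was used, in which 1 read stands for 1 cDNA. Replicate 1 gave 1065570 reads in annotated genes and replicate 2 gave 946553, and levels are given as CPM, the gene's reads over all gene reads of the library, scaled to 1000000. The tissue label was checked against marker genes. Of the gene reads, summed markers of the adrenal cortex took 5.42% in replicate 1 but 2.42% in replicate 2, all 7 lower, and those of chromaffin cells 1.16% and 0.445%, all 5 lower. Erythroid markers took 1.11% and 0.355%, all 4 lower. The 10 hepatocyte markers rose from 0.0725% to 7.97%, all 10 higher in replicate 2, the 7 muscle markers went from 0.00657% to 0.196%, with 2 of the 7 at 0 reads in replicate 1, and brown adipocyte markers took 0.674% and 0.774%. Every difference between the libraries given for a member stands beside that difference in cell content, whose part in it was not tested. In tissue RNA, fewer cells of a type and less RNA per cell cannot be told apart.

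The members together drew 9878 reads in replicate 1 and 7444 in replicate 2. That was 0.927% of gene reads (exact 95% interval 0.909 to 0.945) in the first library and 0.786% (0.769 to 0.804) in the second, a mean of 0.857% ± 0.0994 (SD, n = 2). The 51 large-subunit members took 0.550% ± 0.0598 and the 27 small-subunit members 0.307% ± 0.0396 (SD, n = 2 for both). The 45 members with a bacterial counterpart took 0.516% ± 0.0628 and the other 33 took 0.341% ± 0.0366 (SD, n = 2 for both). Both libraries thus gave each subunit and each class a share of the same order, with replicate 1 the higher in every case. That direction belongs to shares of total gene reads, and other scalings are given with the ratios below. These intervals cover counting error only.

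**Figure D1:**
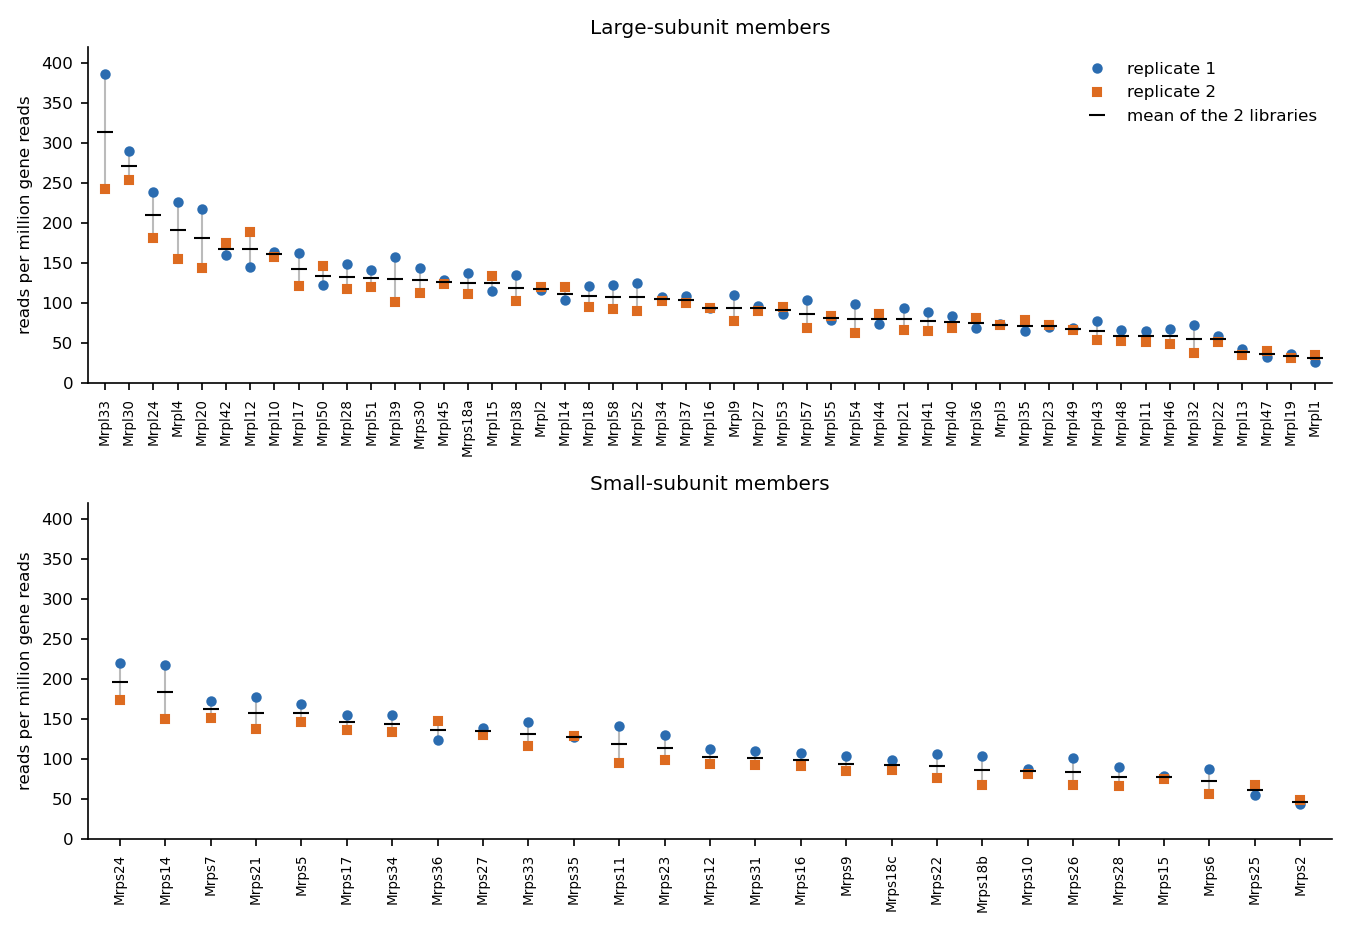
Level of each of the 78 members in CPM (vertical axis), as 1 circle for replicate 1 and 1 square for replicate 2, with a bar at their mean, for the large subunit (top) and the small subunit (bottom). Means run from 30.6 for Mrpl1 to 314 for Mrpl33, and most neighbours in the order lie closer together than their 2 libraries do.

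The mean level of the members had a median of 102 CPM and ran from 30.6 for Mrpl1 to 314 for Mrpl33, a 10.3-fold span. In both libraries 32 members stood above 100 CPM and 5 stood under 50 CPM, and the lowest count of any member in a library was 28 reads. Of the 77 neighbouring pairs in the order of mean level, 4 were separated by more than the larger of their SDs. Those SDs include any shift between the libraries that members share, so they do not measure how firmly neighbours are ordered. Small gaps between neighbours were not read as differences. Across the 78 members the log2 levels of the 2 libraries correlated with a Pearson r of 0.90 and a Spearman rho of 0.90, a description over genes that share both libraries.

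Among the small-subunit members the highest was Mrps24, the counterpart of bacterial uS3 at the path where the message enters, at 220 CPM in replicate 1 and 173 in replicate 2 (196 ± 32.8, SD, n = 2). Its exons overlap those of Urgcp on the same strand. Mrps14, a protein of the small-subunit head, had 217 and 150 CPM. Mrps7, another head protein, had 173 and 151 CPM, and Mrps21, the counterpart of bS21, had 177 and 137 CPM. Mrps5, which lies at the message entry like Mrps24, had 168 and 146 CPM, and Mrps17, an RNA-binding protein of the small-subunit body, had 155 and 136 CPM. All 6 had the lower level in replicate 2, and Mrps14 alone of the 6 was called by the test below. At the other end stood Mrps6 with 87.3 and 56.0 CPM, Mrps25, one of the proteins found in mitochondria alone, with 54.4 and 67.6 CPM, and Mrps2 with 43.2 and 48.6 CPM. The last 2 had the higher level in replicate 2 and were not called.

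Among the large-subunit members Mrpl33 led with 386 CPM in replicate 1 and 242 in replicate 2 (314 ± 102, SD, n = 2). It codes for the counterpart of bL33, a small zinc-binding protein in bacteria. Mrpl30, the counterpart of uL30, followed with 290 and 254 CPM and Mrpl24, one of the proteins around the exit of the peptide tunnel, with 238 and 182 CPM. Mrpl4, whose bacterial counterpart lines the tunnel, had 226 and 155 CPM. Mrpl20, the counterpart of an early-assembling protein, had 218 and 144 CPM, and Mrpl42 had 160 and 175 CPM. The gap between Mrpl33 and Mrpl30 was smaller than the SD of Mrpl33, and in replicate 2 alone Mrpl30 stood first. The lowest were Mrpl47 with 31.9 and 40.1 CPM, Mrpl19 with 36.6 and 31.7 CPM, and Mrpl1, the protein of the mobile L1 stalk, with 26.3 and 34.9 CPM.

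Per kilobase of the longest annotated coding transcript, 5 of the 10 highest members stayed among the 10 highest. Mrpl33 remained first with 657 CPM per kb, over a transcript of 478 bases. Mrps21 followed with 322 and Mrpl42 with 251 CPM per kb. Mrpl30 fell to place 12 with 155 CPM per kb. Long reads are counted once whatever their length, so the order by CPM is the one used in the rest of the text.

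The places of Mrpl30 and Mrpl24 rest on reads without an intron. Single-exon models held 190 of 309 reads of Mrpl30 in replicate 1 (61.5%) and 129 of 240 in replicate 2 (53.8%), all in 1 model at chr1:37898165-37898338 on the plus strand, within the last exon. For Mrpl24 they held 143 of 254 reads (56.3%) and 88 of 172 (51.2%), in a model at chr3:87923210-87923316 in replicate 1 and in a model of 1 base at position 87923316 in replicate 2. The ends of these models are annotated exon ends, so their coordinates do not give the extent of the reads, and the Mrpl24 exons overlap exons of Rrnad1 on the other strand. Over all members, single-exon models held 7.27% of reads in replicate 1 and 6.26% in replicate 2, against 10.9% and 9.70% for all annotated genes. Counted on multi-exon reads alone, Mrpl30 had 112 and 117 CPM and stood in place 28, and Mrpl24 had 104 and 88.7 CPM and stood in place 39, while Mrpl33 stayed first. That count was chosen after seeing the data. In Mrps2, Mrpl16, Mrpl51 and Mrpl44 single-exon models held 39.1%, 32%, 29.3% and 25.3% of reads in replicate 1 and 30.4%, 34.8%, 16.7% and 15.9% in replicate 2.

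Reads of the members mostly matched annotated transcripts. Known models, which match an annotated transcript, held 82.4% of member reads in replicate 1 and 84.7% in replicate 2, against 76.1% and 78.2% for all annotated genes. Models that hold only part of an annotated chain of introns (ISM) made up 4.35% and 4.07%, against 10.7% and 10.6%. Models with at least 1 unannotated splice site (NNC) made up 5.78% and 4.92%, against 3.30% and 3.10%. The NNC share of Mrpl33 alone was 89.3% of its 411 reads and 91.7% of its 229. These were most of the 571 and 366 NNC reads of the members. The higher member share thus rests on Mrpl33, and without it the NNC share of the members lay below that of all genes. Known transcripts annotated as protein-coding alone held 80.8% and 83.4% of member reads. Known transcripts with a retained intron held 1.07% and 0.793%, and those annotated for nonsense-mediated decay 0.101% and 0.134%.

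Between the libraries, 12 of the 78 members were called lower in replicate 2 and 0 higher by a two-sided exact conditional binomial test of reads against the library totals, Benjamini-Hochberg adjusted over 9211 genes and called at an adjusted p under 0.05. At an unadjusted p under 0.05 there were 25 members, but all genes were not counted at that threshold, so this number has no background share. Of all genes tested, 26.4% were called, 17.9% lower and 8.58% higher, so under this scaling the 15.4% of members called is below the background share. Among the 4979 genes in the level range of the members, 32.7% were called, 23.9% lower and 8.8% higher. The median log2 ratio of replicate 2 over replicate 1 was -0.24 for the members and -0.28 for all genes tested. Within 2 counting SEs of the median of all genes lay 65 of the 78 members, a count not made for all genes. Of the members, 59 had a ratio below 0 and 19 above, beside 6297 and 2914 of the 9211 genes tested. This direction belongs to the scaling by total gene reads: with edgeR's TMM factors the median of all genes moved to 0.0039 and that of the members to 0.040, and 1 member was lower and 5 were higher, beside 5.99% of all genes lower and 12.5% higher. With DESeq2 size factors the member counts were the same, beside 5.68% of all genes lower and 12.6% higher. With spike-in reads as the scale, 0 members were lower and 23 higher, beside 1.85% and 22.5% of all genes. The share of members called was then 29.5%, above the 24.3% of all genes, so the order of these shares also depends on the scaling. With the edgeR exact test and a coefficient of variation set at 0.2, 0 members were called in either direction, beside 0.727% of all genes lower and 4.84% higher. In that test 0 members had an unadjusted p under 0.05, again without a count of all genes. The test compares the reads of these 2 libraries, not animals.

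**Figure D2:**
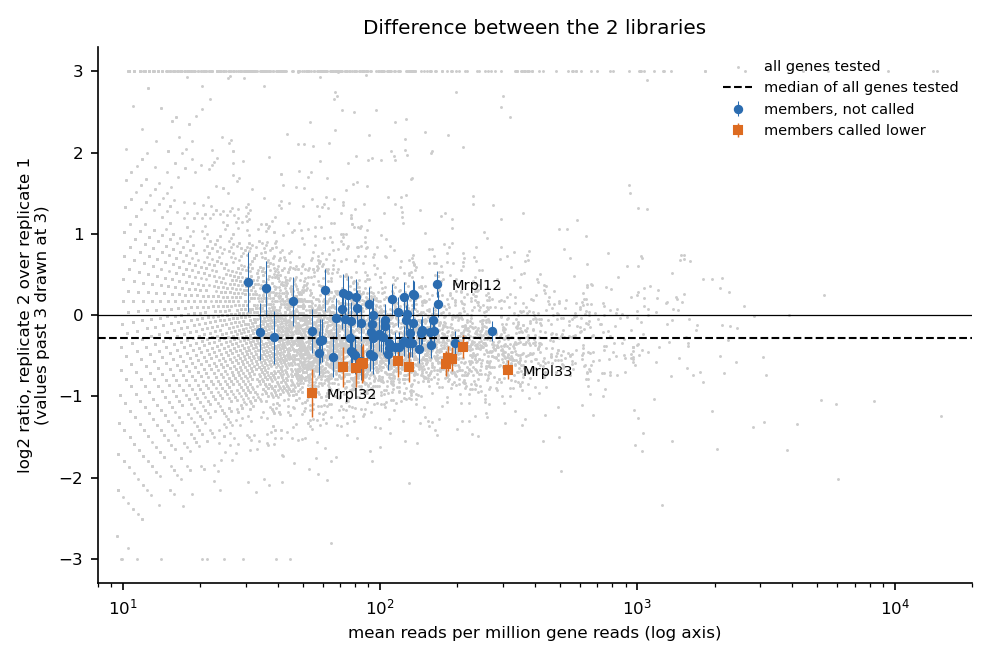
Log2 ratio of replicate 2 over replicate 1 (vertical axis) against mean level on a log axis, for all genes tested (grey) and the members with 1 counting SE (circles not called, squares called lower under scaling by total gene reads). The members lie around the dashed median of all genes, -0.28, and under TMM factors 1 of the called members, Mrpl33, remains lower.

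Mrpl33 had the smallest adjusted p of the members. It went from 411 to 229 reads, a log2 ratio of -0.67 ± 0.12 (SE of counting), adjusted p = 1.42e-07 by the exact binomial test. It was also lower with TMM factors, at -0.39 and an adjusted p of 0.00769, and with DESeq2 size factors, at -0.38 and an adjusted p of 0.00981, and had a log2 ratio of -0.084 with spike-in reads. It was the only one of the 12 called members to stay called lower with TMM factors. Mrpl32, whose protein is trimmed by the m-AAA protease before the large subunit forms, had the largest ratio, with 77 and 35 reads, -0.96 ± 0.29 and an adjusted p of 0.00507 by the same test.

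The other large-subunit members called lower were Mrpl24, Mrpl4, Mrpl20, Mrpl39, Mrpl57 and Mrpl54, with log2 ratios from -0.39 for Mrpl24 to -0.66 for Mrpl54. Mrpl4 had 241 and 147 reads, Mrpl20 232 and 136, and Mrpl39, a protein found in mitochondria alone, 168 and 96. Mrpl57 had 110 and 65 reads and Mrpl54 105 and 59. The small-subunit members called lower were Mrps14 with 231 and 142 reads, Mrps11, a protein of the platform, with 150 and 90, Mrps18b, one of a family of relatives of bacterial bS18, with 110 and 64, and Mrps6 with 93 and 53. Their log2 ratios ran from -0.53 for Mrps14 to -0.63 for Mrps6. Exons of Mrpl33 overlap those of Gm43809 on the same strand, those of Mrps18b overlap Gm16279 on the other, exons of Mrps11 overlap those of Mrpl46 on the other strand and exons of Mrps6 those of Slc5a3 on the same strand, so reads of these pairs may be assigned to either. Without single-exon models 9 of the 12 stayed called lower, and Mrpl24 at -0.25 (adjusted p = 0.434), Mrpl57 at -0.41 (adjusted p = 0.202) and Mrps11 at -0.50 (adjusted p = 0.0701) did not.

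Other members had nearly the same level in both libraries. Mrpl16 had 93.8 and 94.0 CPM, from 100 and 89 reads, the smallest log2 ratio among members with at least 100 summed reads, 0.0036 ± 0.21. Mrpl12, which forms the flexible stalk of the large subunit, went the other way, with 145 and 189 CPM, a log2 ratio of 0.39 ± 0.16 and an adjusted p of 0.0569. With TMM factors its ratio was 0.67 and it was called higher, adjusted p = 0.000241, beside Mrpl15 at 0.51, Mrpl50 at 0.54, Mrps36 at 0.53 and Mrpl42 at 0.42. Across the 78 members the ratio had a Spearman rho of -0.11 with mean level and 0.12 with transcript length, as descriptions over genes from the same libraries.

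**Figure D3:**
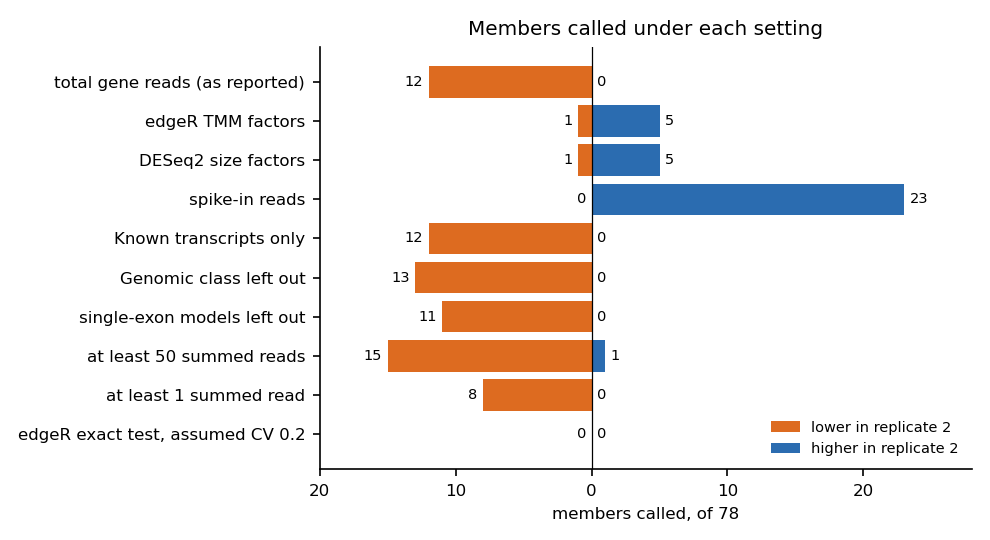
Number of the 78 members called lower (left bars) and higher (right bars) in replicate 2 under each setting of scaling, transcript class, read minimum and test. With total gene reads 12 are lower and 0 higher, with TMM factors or DESeq2 size factors 1 is lower and 5 are higher, and with spike-in reads 0 are lower and 23 higher.

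The genes that work with the mitochondrial ribosome were taken from 4 lists. Their calls stand beside 17.9% of all genes tested called lower and 8.58% called higher under scaling by total gene reads. Of 5 mitoribosomal proteins that carry other names, all with a ratio below 0, 2 were called lower. These were Gadd45gip1, a large-subunit protein, with 331 and 193 CPM (log2 ratio -0.78 ± 0.13, adjusted p = 2.85e-08) and Aurkaip1, a small-subunit protein, with 178 and 123 CPM (-0.54 ± 0.17, adjusted p = 0.00742). Ptcd3 had 95.7 and 75.01 CPM and was not called. Of 11 translation factors tested out of 12, 1 was called, Taco1, a translational activator of cytochrome oxidase subunit 1, higher with 17 and 45 reads (1.55 ± 0.41, adjusted p = 0.000467). The most abundant factors were the elongation factors Tufm with 159 and 136 CPM, Tsfm with 116 and 89.8 CPM and Gfm1 with 83.5 and 90.9 CPM, and they were not called.

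Of 26 assembly and RNA-modification genes tested out of 27, 2 were called lower and 1 higher, beside 17.9% and 8.58% of all genes tested. The lower ones were Slirp, which binds mitochondrial messages, with 189 and 115 reads (log2 ratio -0.54, adjusted p = 0.00716), and Rbfa, a small-subunit assembly factor, with 132 and 75 reads (-0.64, adjusted p = 0.0111). Lrpprc, the partner of Slirp in binding mitochondrial messages, was higher, with 50 and 102 reads (1.19, adjusted p = 8.62e-06). The most abundant gene of the list was Afg3l2, a subunit of the m-AAA protease, with 195 and 227 CPM, and Spg7, its partner subunit, had 133 and 102 CPM. Neither was called. Of 19 mitochondrial aminoacyl-tRNA synthetase genes tested out of 20, Rars2, for arginine, was called lower with 77 and 37 reads (-0.88, adjusted p = 0.01). The most abundant of these were Fars2 with 131 and 145 CPM, Iars2 with 114 and 130 CPM and Gatb, a subunit of the glutamine-forming amidotransferase, with 89.2 and 80.3 CPM. The median log2 ratio of each list was -0.35, -0.042, -0.050 and -0.14 in the order given, and the same dependence on scaling holds for them.

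Most members used 1 intron chain, the ordered set of introns in a spliced read. All 78 had at least 20 spliced reads of the Known, NIC or NNC classes in each library, NIC being new combinations of annotated splice sites. The leading chain held at least 80% of these reads in both libraries in 69 members and at least 90% in 49. A second chain at 10% or more in both libraries was present in 8 members, which is 10.3% of them, beside 25.1% of the 5076 genes with as many reads. Across those 8 members there were 9 such chains, of which 5 left the annotated coding sequence as in the leading chain, 3 changed it and 1 had no annotated coding sequence.

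**Figure D4:**
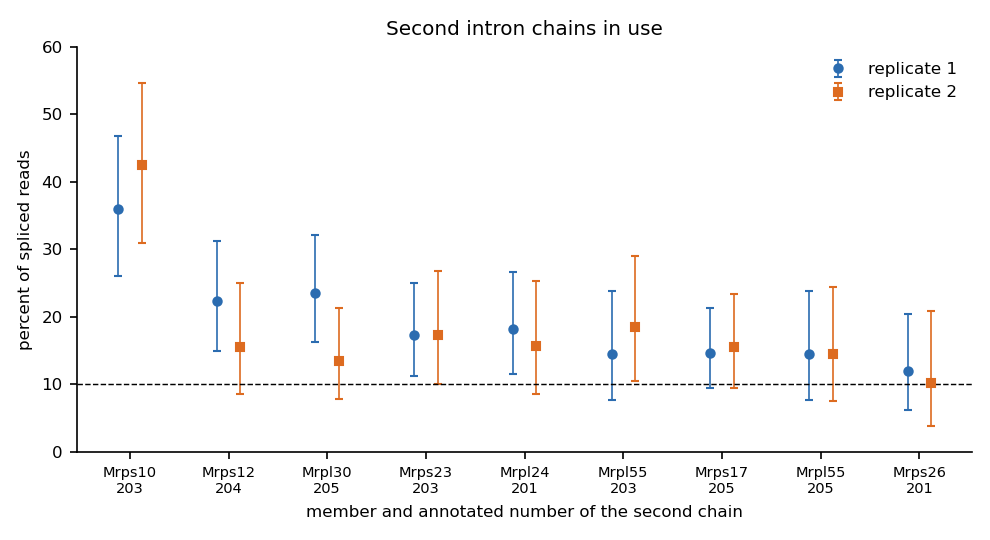
Share of spliced reads (vertical axis, percent) of the 9 second intron chains in use, each named by its gene and annotated transcript number, for replicate 1 (circles) and replicate 2 (squares), with exact 95% intervals of counting. The Mrps10 chain stands highest at 35.96% and 42.5%, and the intervals of the libraries overlap in all 9.

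Mrps10, which sits in the small-subunit head where tRNAs pass, had the most even split. Its leading chain took 44 of 89 reads in replicate 1 (49.4%) and 33 of 73 in replicate 2 (45.2%), and a second chain 32 (35.96%, exact 95% interval 26.1 to 46.8) and 31 reads (42.5%, 31.0 to 54.6). The chains differ by 3 bases at 1 acceptor site, at chr17:47372573-47372590 on the plus strand, where the exon starts at a CAG or 3 bases later. The longer form adds 1 codon, giving 603 coding bases with the stop left out against 600. The bases at that exon start, with those found only in the longer form in capitals, are shown with the acceptors of Mrpl55 because 2 of the 3 differ by the same letters, CAG.
Mrps10: CAGtgccagtatgaagtg
Mrpl55 in the leader: CAGggcctacgtcggggc
Mrpl55 in the coding part: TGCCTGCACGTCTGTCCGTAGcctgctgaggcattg

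Mrpl55, a protein found in the mitochondrial ribosome alone, had 2 second chains. One differs by 3 bases at the acceptor at chr11:59204172-59204189, outside the coding part, and took 12 of 83 reads (14.5%) and 14 of 76 (18.4%). The other starts a later exon 21 bases earlier, at chr11:59204535-59204570, which lengthens the annotated coding sequence from 381 to 402 bases, and took 12 (14.5%) and 11 reads (14.5%). The leading chain of Mrpl55 took 50.6% and 55.3%.

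Mrpl24, Mrpl30, Mrps12 and Mrps17 changed exons before the coding part and kept their annotated coding sequence. In Mrpl24, a chain with another first-exon donor took 20 of 110 reads (18.2%) and 13 of 83 (15.7%), beside 57.3% and 50.6% for the leading chain. In Mrpl30, a chain that skips a noncoding exon of 81 bases took 28 of 119 reads (23.5%) and 15 of 111 (13.5%). In Mrps12, a protein of the decoding centre, a chain without the first intron took 25 of 112 reads (22.3%) and 13 of 84 (15.5%). In Mrps17 a chain that also lacks the first intron took 22 of 150 (14.7%) and 18 of 116 (15.5%). Mrps23 used a donor 95 bases downstream in 22 of 127 reads (17.3%) and 15 of 87 (17.2%), which shortens the annotated coding sequence from 531 to 474 bases. Mrps26 kept an intron in 11 of 92 reads (11.96%) and 6 of 59 (10.2%), in a transcript with no annotated coding sequence.

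The share of the leading chain was compared between the libraries by Fisher's exact test, two-sided, with Benjamini-Hochberg adjustment over 4296 genes. Of the 62 members with at least 5 reads off their leading chain, 0 were called, beside 0.722% of all genes tested. At an unadjusted p under 0.05 there were 276 of the 4296 genes and 1 of the 62 members, Mrps18a, whose leading chain took 90.9% and 98.1% (unadjusted exact p = 0.0282, adjusted p = 0.647). A Monte Carlo test of the whole table of chains by library called 1 of 39 members, Mrpl10, the base of the large-subunit stalk, with an adjusted p of 0.0303, beside 2.05% of the 2969 genes in that test. In Mrpl10 an NNC chain whose first intron starts at an unannotated donor took 17 of 154 spliced reads in replicate 1 and 1 of 134 in replicate 2, while the annotated leading chain took 85.7% and 93.3%.

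Mrpl33, at chr5:31596935-31664384 on the plus strand, was the sole member whose leading chain was unannotated. That chain took 354 of 411 reads in replicate 1 (86.1%, exact 95% interval 82.4 to 89.3) and 206 of 229 in replicate 2 (89.96%, 85.3 to 93.5), a mean of 88.0% ± 2.70 (SD, n = 2). Its share did not pass the test between the libraries (Fisher's exact test, unadjusted p = 0.172, adjusted p = 0.967). Of the 5076 genes with as many spliced reads, 1.08% had an unannotated chain with over 50% of reads in both libraries. The chain was known from earlier results of these data, so its share is given as a description.

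The annotated coding transcript joins exon 1, which ends at position 31614022, to an exon of 19 bases at chr5:31614603-31614621 and then to an exon of 107 bases at chr5:31616381-31616487. The observed chain ends exon 1 at position 31614030, 8 bases downstream, and joins it straight to the exon of 107 bases. The bases from the annotated start codon into the 107-base exon are given here from the GENCODE transcripts on mm10, with the part that differs in capitals, to show how the forms differ.
Mrpl33 annotated: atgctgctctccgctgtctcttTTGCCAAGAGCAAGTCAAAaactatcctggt
Mrpl33 observed: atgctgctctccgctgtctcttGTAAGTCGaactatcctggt
In the genome the 8 bases follow exon 1 directly, at chr5:31614013-31614040, and are followed by another GT.
Mrpl33 exon 1 end: gctgtctcttGTAAGTCGgtctgaggcg

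The observed chain is 11 bases shorter than the annotated one, so the frame changes. From the annotated start codon the annotated form reads 65 codons before its stop, and the observed chain 42, with the stop 8 bases before the last junction. The 8 bases match bases 10 to 17 of the 19-base exon at 6 of 8 places. The tables hold positions of aligned reads and not the reads, so whether the molecules carry the bases of the 19-base exon was not tested.

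Junctions were counted over all models of the gene from the positions of aligned reads, so the limit just given holds for these counts too. The downstream donor was used in 355 of 411 reads (86.4%) and 207 of 229 (90.4%), and the annotated donor in 5 (1.22%) and 4 (1.75%). The 19-base exon appeared as an exon of its own in 15 reads (3.65%) and 4 (1.75%), joined to other upstream exon ends. The annotated path from exon 1 through the 19-base exon to the 107-base exon had 0 reads in both libraries, which allows a share of up to 0.730% in replicate 1 and 1.31% in replicate 2 at 3 counts, and up to 0.894% and 1.60% as the exact 95% limits drawn in the plot of junctions. In 1 read of each library the annotated exon 1 was joined to the start of the 19-base exon with the following intron kept. Known transcripts, which leave this chain out, held 5.35% of Mrpl33 reads in replicate 1 and 2.62% in replicate 2. With Known transcripts only, and so on few reads, the log2 ratio of Mrpl33 was -1.66, adjusted p = 0.0288 by the exact binomial test.

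**Figure D5:**
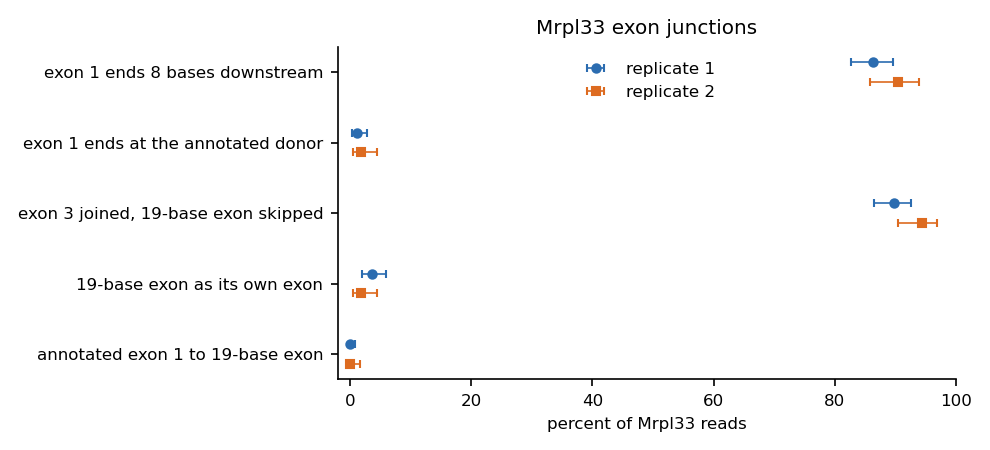
Share of Mrpl33 reads (horizontal axis, percent) that hold each exon junction or exon as aligned, for replicate 1 (circles) and replicate 2 (squares), with exact 95% intervals of counting. The donor 8 bases downstream is in 86.4% and 90.4% of reads, and the annotated path from exon 1 through the 19-base exon, the lowest line, is in 0.

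Many members start close to a gene on the other strand. A protein-coding gene started within 1000 bases of the annotated start on the opposite strand for 33 of the 78 members (42.3%), against 17.6% of 8911 protein-coding genes tested and 10.8% of all 22028. Some partners also serve mitochondria, and those named here are examples, as partners of this kind were not counted. Mrps12 starts 172 bases from Sars2, the mitochondrial seryl-tRNA synthetase, Mrpl43 779 bases from Twnk, the mitochondrial DNA helicase, and Mrpl36 29 bases from Ndufs6, a subunit of respiratory complex I. Mrps11 and Mrpl46 start 412 bases apart and form a pair of members of opposite subunits. Exons of 33 members overlap an exon of another gene, on the same strand in 8, and for those the counting could split reads between genes. Such overlaps were not counted for other genes, so these numbers have no background share.

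Promoters of the members were searched for the letters of factors known to act on genes for mitochondrial proteins, namely NRF1, ETS factors such as GABP, and YY1. RefSeq promoters on GRCm38.p6, from 250 bases before to 50 after the start, matched 69 of the 78 members. The letters GCATGCGC of the NRF1 core, on either strand, were in 8 of these (11.6%), against 6.49% of 7133 genes tested and 3.05% of all 27025 in the table. The ETS letters CCGGAAG were in 26 (37.7%), against 22.1% and 9.93%, and the YY1 letters AAGATGGCG in 8 (11.6%), against 4.16% and 1.64%. At least 1 of the 3 was in 36 members (52.2%), against 30.04% and 13.6%. These are matches of letters and not sites of binding. In Mrpl33 both the NRF1 core and the ETS letters lie at the start of exon 1 of the coding transcript, inside the annotated span of the gene. The matches are given in capitals on the strand of the gene, those of Mrpl33 and Mrpl17 for the NRF1 core reading on the opposite strand.
Mrpl33, NRF1 core, chr5:31613929-31613956: accggaacccGCGCATGCcccggaagta
Mrpl33, ETS, chr5:31613938-31613964: cgcgcatgccCCGGAAGtagtcgttga
Mrpl17, NRF1 core, chr7:105811081-105811108: ccgagttactGCGCATGCgtcctctgag
Mrps18b, NRF1 core, chr17:35916646-35916673: acggcccgacGCATGCGCactgggagca
Mrpl42, YY1, chr10:95501904-95501932: agattgaagcAAGATGGCGagcgcgcggt

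The 8 members with the NRF1 core were Mrpl9, Mrpl10, Mrpl17, Mrpl22, Mrpl32, Mrpl33, Mrpl39 and Mrps18b. The log2 ratios of these ran from -0.96 for Mrpl32 to -0.060 for Mrpl10. The 8 with the YY1 letters included Mrps24 and Mrpl42, 2 of the members of highest level, and Mrps11, Mrps27 and Mrpl35, and their ratios ran from -0.56 for Mrps11 to 0.27 for Mrpl35. Of the 8 with the NRF1 core, 6 lay below the median of all genes and 4 were called lower (Mrpl32, Mrpl33, Mrpl39 and Mrps18b). Of the 8 with the YY1 letters, 3 lay below it and 1 was called lower, and of the 26 with the ETS letters, 16 and 3. These are counts in small sets under scaling by total gene reads, with no test. The calls stand beside 15.4% of all members and 17.9% of all genes tested called lower. For the counts below the median, as many genes tested lie below it as above it by definition, and the median of all members, -0.24, lay above it. With TMM factors Mrpl33 alone of the members stayed called lower. Calls of other genes with the same letters were not counted.

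Annotated processed pseudogenes carry names of some members and could take reads from them. Mrpl23-ps1 drew 38 reads in replicate 1 and 27 in replicate 2, beside 74 and 69 for Mrpl23 itself. Mrps36-ps1 and Mrpl48-ps drew 1 read each in replicate 1 and 0 in replicate 2, and 2 other Mrps36 pseudogenes drew 0. Reads of Mrpl23 and its pseudogene may be hard to separate, and the level of Mrpl23 is uncertain to that extent.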

How the data were processed

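The members and lists were chosen with earlier results of these data known. Per the file headers, the deposited tables give whole read counts per transcript model on mm10 and GENCODE M21, with TALON identifiers and classes. The other deposited columns give exon numbers and lengths of each model. For the aligner and the read filters, the sources used here give no name or setting. Gene counts are sums over models, 1065570 and 946553 in all. Intron chains were matched between libraries by position. Genes with at least 20 summed reads were tested by an exact conditional binomial test (scipy 1.17.1), and log2 ratios have 0.5 reads added. Scaling and exact tests with edgeR 4.0.16 and size factors from DESeq2 1.42.0 were alternatives. Reads are not independent molecules, so intervals and exact tests cover counting error only. The difference between the 2 samples may be technical. Zero counts allow up to 2.82 CPM in replicate 1 and 3.17 CPM in replicate 2. Gene spans and transcript sequences are GENCODE M21. Named members are the 6 highest and 3 lowest of each subunit, those past a test, those with a second chain, Mrpl33 and the member of smallest ratio; others in the text were chosen after their values were seen. Mrpl55 was counted with the members that have no bacterial counterpart, against the first list.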

Additional observations from a re-analysis of the deposited data

Results flagged for a closer look

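Reads of unannotated loci lay on the other strand over some members, in data that the comparisons above do not use. Over Mrps6 there were 19 such reads in replicate 1 and 24 in replicate 2, and over Mrps31 there were 5 and 4, more in both libraries than the 3 counts that a count of 0 allows. These 2 of the 78 members are 2.56%, beside 11.1% of the 8911 protein-coding genes tested. In replicate 1 taken by itself, 9 members (11.5%) were past that limit, beside 22.1% of those genes, and in replicate 2 taken by itself, 4 (5.13%), beside 13.5%.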

How the results depend on the processing

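No paired analysis was possible because there is 1 group. The number of members called, 12, was 6 with edgeR TMM factors and 6 with DESeq2 size factors (5 higher and 1 lower in both), 23 with spike-in reads, all higher, and 0 with the edgeR exact test at an assumed coefficient of variation of 0.2, and it lay between 8 and 16 under the other read minimums and transcript classes. The median log2 ratio of members, -0.24, turned to 0.040 with TMM factors, 0.050 with DESeq2 size factors and 0.34 with spike-in reads. Of the 78 calls, 43 were as reported with spike-in reads. Of the 10 highest members, 5 stayed so per kb. A second chain was in use in 16 members at 5% and in 1, Mrps10, at 20%. The whole-table test of chains called 1 member. Leaving out a library gave a member share between 0.786% and 0.927%, 8 to 9 of the 10 highest members and an Mrpl33 chain share between 86.1% and 89.96%.

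Of the 78 members, 24 changed direction with TMM factors, 25 with DESeq2 size factors, 52 with spike-in reads, 5 with Known transcripts only, 5 without the Genomic class and 4 without single-exon models. Among the members named by the rule or for a second chain, those that did, as log2 ratios, were with TMM factors Mrpl19 0.082, Mrpl30 0.091, Mrps10 0.18, Mrps12 0.010, Mrps17 0.10, Mrps5 0.081 and Mrps7 0.093. With DESeq2 size factors they were Mrpl19 0.092, Mrpl30 0.10, Mrps10 0.19, Mrps12 0.020, Mrps17 0.11, Mrps5 0.091 and Mrps7 0.10. With spike-in reads they were Mrpl19 0.38, Mrpl24 0.20, Mrpl30 0.39, Mrpl4 0.047, Mrpl57 0.0035, Mrps10 0.49, Mrps11 0.024, Mrps12 0.31, Mrps14 0.058, Mrps17 0.40, Mrps21 0.22, Mrps23 0.19, Mrps24 0.25, Mrps26 0.021, Mrps5 0.38 and Mrps7 0.40. Without the Genomic class Mrpl16 was -0.015, Mrpl30 0.052 and Mrps2 -0.36, with Known transcripts only Mrpl16 was -0.033 and Mrpl30 0.0011, and without single-exon models, a setting chosen after seeing the data, Mrpl16 was -0.076 and Mrpl30 0.051. Another scaling shifts every ratio by 1 constant. Mrps2 had 18 single-exon reads, classed as ISM, in replicate 1 and 14, classed as Genomic, in replicate 2. Leaving out the Genomic class therefore took reads of Mrps2 from replicate 2 alone. For the other changes outside the scalings the cause was not tested. Counts of 28 to 411 reads a member limit the precision.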
